A study of Mus musculus with 6 samples.

Results

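Replication-dependent histone genes encode the core histones H2A, H2B, H3 and H4 and the linker histones H1 that package newly copied DNA. Their values were read from 45 of 34760 probe sets of an Affymetrix mouse gene array, taken as every probe set whose annotated gene symbols all match the names of the histone families. Of these, 30 carried 1 symbol and 15 carried several, and together they named 47 genes. The pattern of names also caught 3 linker histone genes that are not tied to replication (H1f7, H1f8 and H1f10) and 3 testis histone genes (H1f6, H2ac1 and H2bc1), which left 24 single-gene probe sets for replication-dependent histones.

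The samples were pre-granulocyte-macrophage progenitors (PreGMs), myeloid progenitors of the bone marrow, sorted from female C57BL/6 mice as Kit+ cells negative for Lin, Sca1, CD150, CD41, FcgRII and Endog. One group came from 3 mice labelled Cebpa flox/flox, in which the Cebpa gene carries sites for Cre recombinase, and the other from 3 mice labelled Cebpa flox/flox;Mx1Cre, which also carry Cre under the Mx1 promoter. Every mouse, controls included, had been given pIC, an inducer of interferon and so of that promoter, and was taken at day 18, so Cre is not limited to 1 cell type and both groups share the interferon stimulus. The sources used here do not give ages. The study's design counts 3 mice per genotype, and which mouse gave which array is not stated, so p-values measure the spread between these samples. RNA of 20 ng per sample was amplified with a whole-transcriptome kit. Values are log2 expression, so 1 unit is a 2-fold difference, and each difference is the mean of the Mx1Cre arrays minus that of the flox/flox arrays.

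Histone messages of this class are made in S phase, when the cell copies its DNA. They are the messages of animal cells that end in a stem-loop instead of a poly(A) tail, and the stem-loop binding protein, encoded by Slbp, carries them through processing and translation. The genes lie in clusters, and copies within a class are so alike that 1 probe can read several of them. Of the single-gene probe sets for replication-dependent histones, RefSeq places 20 on chromosome 13 and 4 on chromosome 3.

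Cebpa, the gene the study set out to delete, was read first as a check of the labels, and it ran against them. It read 6.93, 6.71 and 6.85 in the flox/flox arrays and 8.71, 9.31 and 8.98 in those labelled Mx1Cre. Cebpa was thus higher by 2.17 ± 0.15 log2 units under the Mx1Cre label (SE, limma adjusted p = 0.000126). Where its probes lie relative to the deleted part was not used here. Every direction given here is that of the deposited labels and would turn if the labels were exchanged. Kit, the antigen selected in the sort, averaged 10.5 and 10.6 in the 2 groups. Of 5 measured genes for antigens excluded by the sort, Fcgr3 was lower, with a difference of -1.04 (limma adjusted p = 0.0186), and the others did not pass. Fcgr2b was the only 1 of the 5 with a difference above 0, at 0.43 (limma adjusted p = 0.0543). All 6 monocyte marker genes and 6 of 8 neutrophil markers were higher in the arrays labelled Mx1Cre, the mean level of the monocyte list being 6.32 to 6.62 in the flox/flox arrays and 8.96 to 9.19 in the others. Of 8 T and NK cell markers 2 were lower, Gzmb at -4.45 and Trat1 at -2.56, while the other members lay between -0.45 and 0.22 and did not pass. The mean level of that list was 7.24 to 7.37 against 6.05 to 6.53, and its median difference was -0.23. Of 6 measured erythroid markers 2 were lower. Of 4 measured megakaryocyte genes 1 was lower, of 5 stromal genes 1, of 5 mast cell and basophil genes 2 higher and 2 lower, and of 5 measured B cell genes 0 passed. The part of these other cell types in the histone values was not tested, and in sorted bulk samples fewer cells of a type and less RNA per cell cannot be told apart.

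Promoters of the histone classes carry short shared sequences, which are shown for genes whose values are given below. They come from RefSeq (GRCm38.p6), end at the last base before the annotated start, and run 5′ to 3′ on the strand of the gene. RefSeq's table held a promoter for 42 of the 47 genes. Capitals mark any match, on either strand, to TATAAA (the TATA box), CCAAT, ATTTGCAT (the octamer known from H2B promoters), GGTCCG (from the H4 promoter element known to bind HINFP) and AAACACA (known from H1 promoters). ATTGG is CCAAT read on the other strand. None of these motifs is contained in another.
H1f5 (chr13:21780626-21780765, minus strand): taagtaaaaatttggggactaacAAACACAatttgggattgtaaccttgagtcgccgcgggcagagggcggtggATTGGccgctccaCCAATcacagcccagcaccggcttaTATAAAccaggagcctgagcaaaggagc
H1f2 (chr13:23738667-23738806, plus strand): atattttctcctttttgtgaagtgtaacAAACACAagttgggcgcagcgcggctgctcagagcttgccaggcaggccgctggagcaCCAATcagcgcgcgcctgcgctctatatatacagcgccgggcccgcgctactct
H2ac15 (chr13:21753913-21754052, minus strand): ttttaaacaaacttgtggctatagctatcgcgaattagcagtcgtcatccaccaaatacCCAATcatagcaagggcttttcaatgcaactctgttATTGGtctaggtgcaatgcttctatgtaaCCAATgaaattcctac
H2bc14 (chr13:21721904-21722043, plus strand): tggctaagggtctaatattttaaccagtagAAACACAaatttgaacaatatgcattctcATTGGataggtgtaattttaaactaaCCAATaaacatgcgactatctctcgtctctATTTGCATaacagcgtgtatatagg
H4c11 (chr13:21734964-21735033, plus strand): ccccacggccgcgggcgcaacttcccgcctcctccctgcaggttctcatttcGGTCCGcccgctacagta
H4c17 (chr13:21811676-21811745, plus strand): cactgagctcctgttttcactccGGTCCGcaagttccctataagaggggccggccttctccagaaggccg
H4c4 (chr13:23581498-23581567, plus strand): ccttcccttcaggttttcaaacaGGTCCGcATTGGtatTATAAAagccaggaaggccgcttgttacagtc
H4c3 (chr13:23698459-23698528, minus strand): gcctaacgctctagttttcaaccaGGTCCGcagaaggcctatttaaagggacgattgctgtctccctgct

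Each motif was counted over windows from 250 bases before to 50 after the start, in histone genes and in all 32851 RefSeq promoter entries. TATAAA stood in 24 of 43 histone entries, against 13.6% of all. By class these were 4 of 9 H1, 4 of 4 H2A, 4 of 9 H2B, 4 of 10 H3 and 8 of 11 H4. H2ac15, H4c11 and H4c17 held TATAAA outside the stretches printed above. GGTCCG stood in 10 of 11 H4 promoters, against 8.25% of all entries. CCAAT was present in all 10 H3 promoters and all 9 H2B entries, against 37.4% of all. ATTTGCAT occurred in 6 of 9 H2B and 3 of 4 H2A entries, against 1.74% of all. AAACACA occurred in 5 of 9 H1 promoters, against 7.18% of all. These 9 include H1f7, H1f8 and H1f10, which are not tied to replication and did not hold it. The testis genes H1f6, H2ac1 and H2bc1 are also in the class counts. Motifs were also shared between classes, with AAACACA in 2 of 4 H2A and 2 of 9 H2B entries and CCAAT in all 4 H2A, 7 of 9 H1 and 3 of 11 H4 entries. H1f5 and H1f2, whose differences had opposite signs, both held AAACACA and CCAAT. These matches are a description of sequence.

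Histone probe sets lay mostly, but not evenly, above 0 in the arrays labelled Mx1Cre. Of the 45, 33 (73.3%) had a difference above 0, against 47.0% of all 22961 annotated probe sets, and the median was 0.32 log2 units against -0.0099. Only 3 passed the test, which is 6.67% against 2.06% called higher among all annotated probe sets (limma, adjusted p under 0.05), and 0 were called lower, against 1.72%. These were H1f5, H2ac15 and the probe set shared by H4c17 and H4c11. An unadjusted p under 0.05 was reached by 20 of the 45 (44.4%), all with a higher mean in the arrays labelled Mx1Cre, against 8.01% of all annotated probe sets in that direction. A difference above 0.4 was held by 20 members (44.4%), against 3.72%. Groups did not overlap for 5 members (11.1%) with Mx1Cre higher, near the background of 10.4%, and for 0 with Mx1Cre lower, against 10.6%. Probe sets of alike genes can read the same message, so these counts are not counts of separate genes. The plot of differences by class shows the spread within each class.

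**Figure D1:**
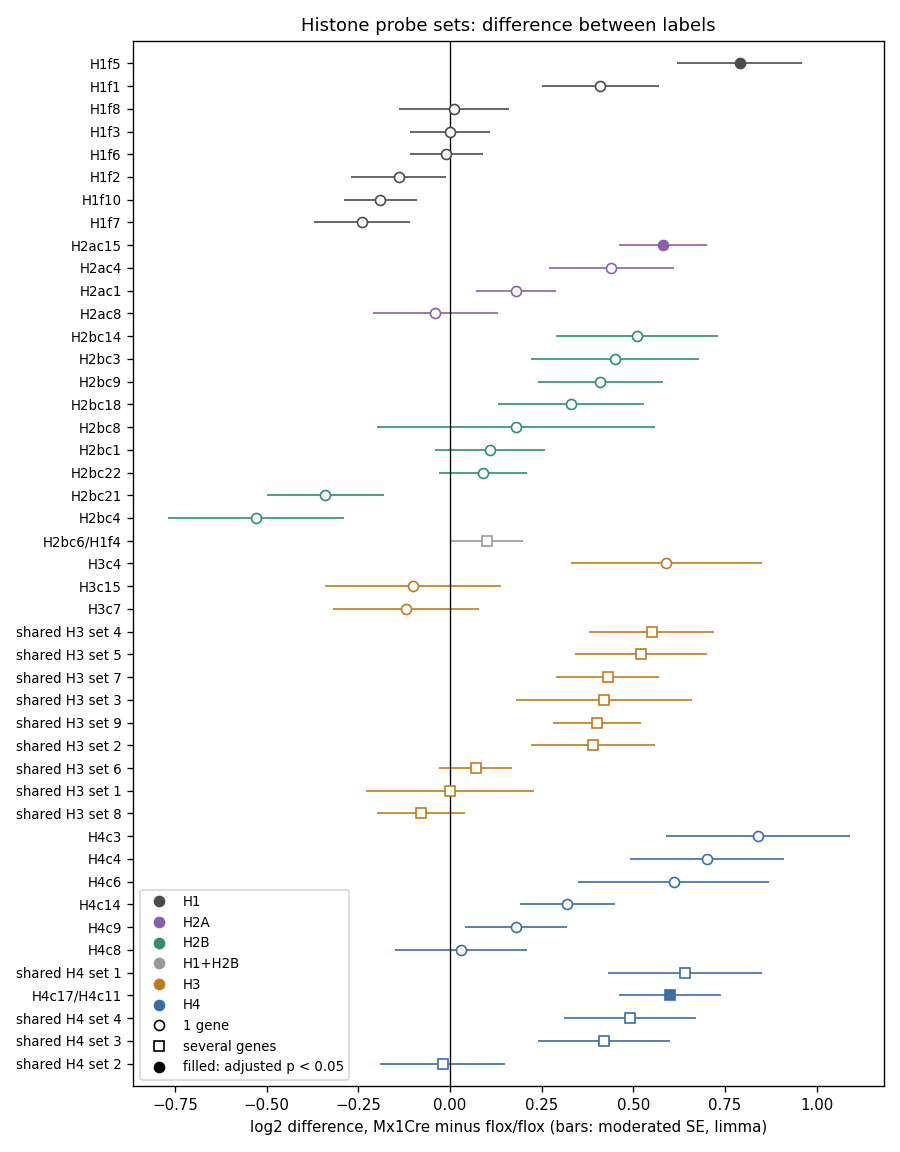
Difference between labels for each of the 45 histone probe sets, on the log2 scale, with the moderated SE from limma as bars; circles stand for 1 gene, squares for several, and filled marks for adjusted p under 0.05. The differences run from -0.53 for H2bc4 to 0.84 for H4c3, and the 3 filled marks are H1f5, H2ac15 and H4c17/H4c11.

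Linker histones H1 bind the DNA between nucleosomes, and their genes did not share 1 direction. H1f5 read 8.98, 9.42 and 9.43 in the flox/flox arrays and 10.32, 9.72 and 10.16 in the Mx1Cre arrays. Every Mx1Cre value thus lay above every flox/flox value. H1f5 was 1.73-fold higher under the Mx1Cre label, at 0.79 ± 0.17 on the log2 scale (SE, limma adjusted p = 0.042). The call was lost without any 1 of the 3 flox/flox arrays and without Mx1Cre replicate 1 or 3 (limma adjusted p 0.0715 to 0.14). Without Mx1Cre replicate 2 it held (limma adjusted p = 0.0163), and with all 34760 probe sets in the fit it was lost (0.165).

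H1f1, an H1 gene of replicating cells, read 7.79, 8.07 and 8.23 against 8.68, 8.10 and 8.54. The lowest Mx1Cre array lay inside the flox/flox range, and the difference of 0.41 log2 units did not pass (limma adjusted p = 0.253). H1f2, the H1 probe set of highest mean value, read 9.91, 10.19 and 10.03 against 9.67, 10.16 and 9.89. Its groups overlapped, with a difference of -0.14 (limma adjusted p = 0.725). H1f3 averaged 5.56 in both groups, below the lower quartile of 5.58 over annotated probe sets. Among the H1 genes that are not tied to replication, H1f10, found in many cell types, and H1f7, a spermatid gene, differed by -0.19 and -0.24, and the oocyte gene H1f8 by 0.01, none past the test. The testis gene H1f6 differed by -0.01.

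H2A pairs with H2B in the nucleosome, and H2ac15 was the H2A gene that passed. It read 7.83, 8.03 and 8.17 in the flox/flox arrays and 8.76, 8.39 and 8.63 in the Mx1Cre arrays, with no overlap. H2ac15 was higher by 0.58 ± 0.12 log2 units under the Mx1Cre label (SE, limma adjusted p = 0.0372). The call was lost without any 1 array except Mx1Cre replicate 2 (limma adjusted p 0.0544 to 0.128, and 0.0275 without that array), and in the fit over all probe sets (0.147). H2ac4 differed by 0.44 (limma adjusted p = 0.246). H2ac8, with means of 4.57 and 4.53 under the lower quartile, differed by -0.04. The testis gene H2ac1 differed by 0.18, with means of 7.61 and 7.79.

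H2B genes spread to both sides of 0 and none of the 8 passed. H2bc14 read 8.36, 8.84 and 9.23 against 9.55, 8.96 and 9.45, so 1 Mx1Cre array fell inside the flox/flox range (difference 0.51, limma adjusted p = 0.305). H2bc3, H2bc9 and H2bc18 differed by 0.45, 0.41 and 0.33. H2bc22 and H2bc8 differed by 0.09 and 0.18, and for H2bc8 Mx1Cre replicate 1 stood alone at 9.71 with replicates 2 and 3 at 7.96 and 8.22. The testis gene H2bc1 differed by 0.11.

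The remaining H2B genes, H2bc21 and H2bc4, had the lowest differences of all members. H2bc21, the H2B probe set of highest mean value, read 10.52, 10.97 and 10.72 in the flox/flox arrays and 10.11, 10.67 and 10.41 in those labelled Mx1Cre. H2bc4 read 10.27, 10.80 and 10.38 against 9.45, 10.51 and 9.90. Both overlapped between groups, at -0.34 and -0.53 log2 units, and neither passed (limma adjusted p 0.346 and 0.337). Like H1f2, both have been described as also forming polyadenylated messages. Within each label these 3 genes read highest in replicate 2 and, in the Mx1Cre arrays, lowest in replicate 1, whereas H1f5, H1f1, H2ac15 and H2bc14 read highest in Mx1Cre replicate 1. H1f2, H2bc4 and H2bc21 were set side by side after their values were seen, and the difference between them and the other histones was not tested. The plot of selected members by array shows the opposite order among the Mx1Cre arrays. In the flox/flox arrays all of these genes read lowest in replicate 1.

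**Figure D2:**
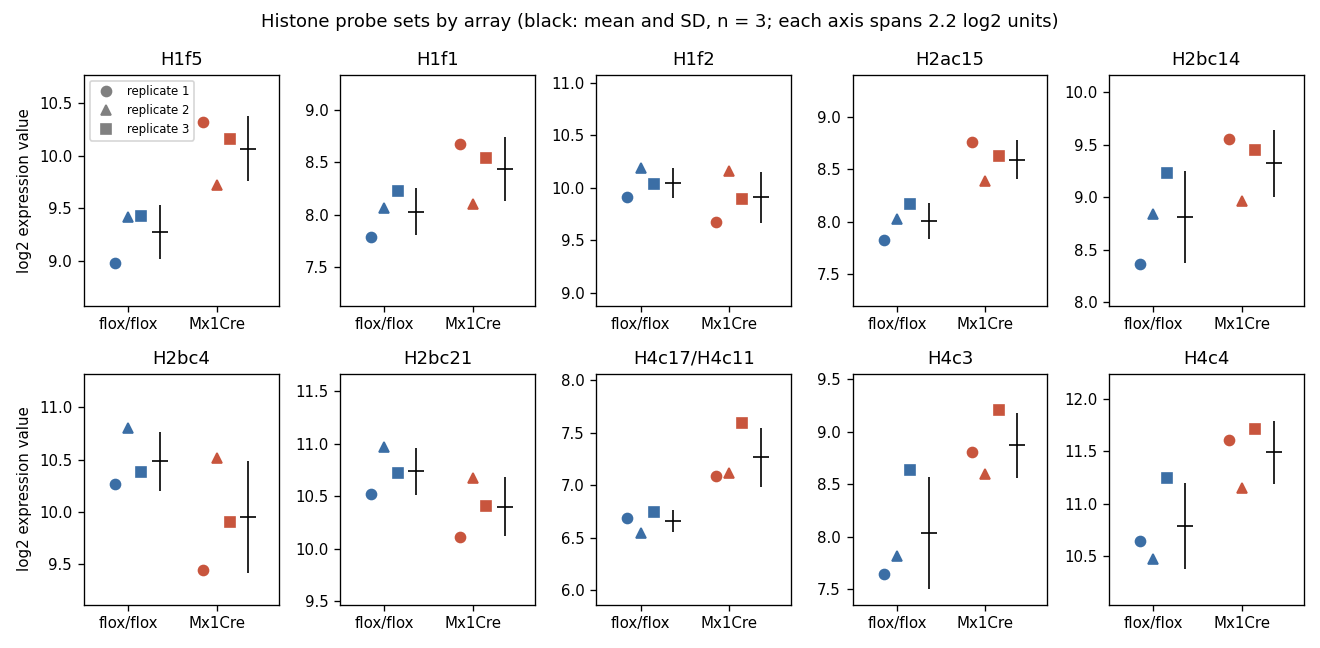
log2 expression values of 10 histone probe sets in each of the 6 arrays, flox/flox in blue and Mx1Cre in red, with replicate numbers as marker shapes and the mean and SD (n = 3) in black. In Mx1Cre replicate 2 H1f5 reads 9.72, the lowest of its group, while H2bc4 reads 10.51, the highest of its group.

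Histone H3, with H4, forms the centre of the nucleosome. H3c4, the single-gene H3 probe set of highest mean value, read 5.98, 5.84 and 5.65 against 7.11, 5.91 and 6.23. The difference of 0.59 did not pass (limma adjusted p = 0.312), with Mx1Cre replicate 1 standing far above the other arrays. H3c7 and H3c15 differed by -0.12 and -0.10, from flox/flox means of 3.86 and 5.52 that lie under the lower quartile.

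The annotation assigns the same 12 H3 genes to each of 9 further probe sets, so their values cannot be given to 1 gene, and they are numbered here in the order of the table. None passed. Shared H3 set 4 read 7.82, 7.82 and 8.11 against 8.63, 8.05 and 8.73, with 1 Mx1Cre array inside the flox/flox range (difference 0.55). Shared H3 set 5 read 7.51, 7.05 and 7.89 against 8.05, 7.91 and 8.06, and shared H3 set 9 read 7.52, 7.59 and 7.95 against 8.03, 8.04 and 8.18. Sets 5 and 9 did not overlap between groups, with differences of 0.52 and 0.40 and limma adjusted p-values of 0.187 and 0.125.

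Shared H3 set 3 read 10.22, 10.33 and 10.46 against 11.31, 10.15 and 10.83. Shared H3 set 7 read 8.95, 8.70 and 9.04 against 9.50, 9.04 and 9.45. Shared H3 set 2 read 7.68, 7.38 and 7.28 against 7.93, 7.46 and 8.10. In all of these, at 0.42, 0.43 and 0.39, Mx1Cre replicate 2 was the lowest of its group and lay at or under the highest flox/flox array.

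The other three H3 sets had differences near 0. Shared H3 set 1 read 4.72, 5.07 and 5.03 against 4.78, 4.51 and 5.54. Shared H3 set 6 read 7.75, 7.64 and 7.77 against 7.96, 7.64 and 7.76. Shared H3 set 8 read 7.92, 7.64 and 7.77 against 7.65, 7.53 and 7.91. Their differences were 0.00, 0.07 and -0.08, so probe sets under 1 annotation gave values from -0.08 to 0.55.

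All 6 single-gene H4 probe sets had a difference above 0, and none passed. H4c4, the one of highest mean value, read 10.65, 10.47 and 11.25 against 11.61, 11.15 and 11.71. H4c3, which had the highest difference of all members, read 7.65, 7.82 and 8.64 against 8.81, 8.60 and 9.21. Flox/flox replicate 3 reached into the Mx1Cre range in both genes. Their differences were 0.70 ± 0.21 and 0.84 ± 0.25 log2 units (SE, limma adjusted p 0.120 and 0.118). Without flox/flox replicate 3 both passed, and so did H4c6 (differences 0.93, 1.14 and 0.96, limma adjusted p 0.0389, 0.0212 and 0.024). H4c6, H4c14, H4c9 and H4c8 differed by 0.61, 0.32, 0.18 and 0.03 over all arrays.

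The probe set shared by H4c17 and H4c11 was the third that passed. It read 6.69, 6.55 and 6.75 in the flox/flox arrays and 7.09, 7.12 and 7.59 in the Mx1Cre arrays, with no overlap. The set was 1.52-fold higher under the Mx1Cre label, at 0.60 ± 0.14 on the log2 scale (SE, limma adjusted p = 0.0497). The call was lost with each array centred on its median (0.0635), with cyclic loess (0.0541), in the fit over all probe sets (0.176) and without any 1 array other than Mx1Cre replicate 1 (0.068 to 0.141).

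A further 4 probe sets were each annotated to the same 11 H4 genes. Shared H4 set 1 read 9.22, 9.02 and 9.90 against 10.23, 9.80 and 10.04. Shared H4 set 3 read 9.58, 9.93 and 10.23 against 10.47, 10.02 and 10.51. Shared H4 set 4 read 10.77, 10.85 and 11.37 against 11.64, 11.19 and 11.63. In these sets flox/flox replicate 3 stood above Mx1Cre replicate 2, and the differences of 0.64, 0.42 and 0.49 did not pass (limma adjusted p 0.157, 0.304 and 0.209). Shared H4 set 2 read 7.82, 7.17 and 7.77 against 7.44, 7.72 and 7.52, a difference of -0.02 with overlapping groups. The probe set shared by H2bc6 and H1f4 read 7.68, 7.68 and 7.72 against 7.94, 7.60 and 7.85, with a difference of 0.10.

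**Figure D3:**
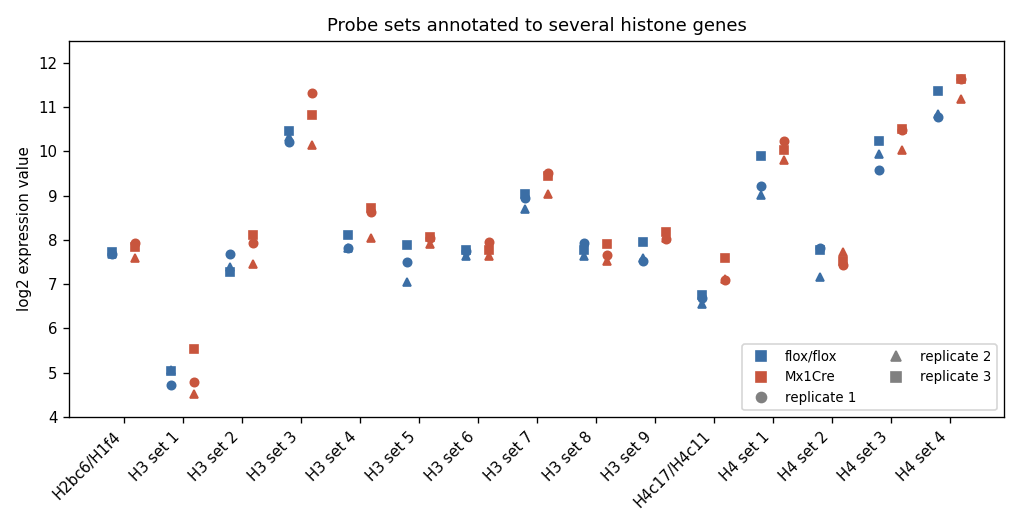
log2 expression values of the 15 probe sets annotated to several histone genes, in the flox/flox arrays (blue) and the Mx1Cre arrays (red), with replicate numbers as marker shapes. Only H4c17/H4c11, at 6.55 to 6.75 against 7.09 to 7.59, passed the test.

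Arrays of 1 label differed among themselves. Each probe set was set against its own mean over the 6 arrays, and the median of these deviations over the 24 replication-dependent single-gene sets was -0.34, -0.21 and 0.04 in flox/flox replicates 1, 2 and 3. In Mx1Cre replicates 1, 2 and 3 it was 0.35, -0.03 and 0.23. Flox/flox replicate 3 thus stood above Mx1Cre replicate 2. Of the 24 sets, 19 read lowest of their label in Mx1Cre replicate 2, 15 read lowest in flox/flox replicate 1 and 15 read highest in flox/flox replicate 3. Leaving out Mx1Cre replicate 2 put 38 of the 45 differences above 0, and leaving out Mx1Cre replicate 3 put 30 there.

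Genes of DNA replication are, like the histones, used in S phase. Of 37 measured, 36 had a difference above 0, against 47.0% of annotated probe sets, and 26 had groups that did not overlap with Mx1Cre higher, against 10.4%. Past the test 7 were higher and 0 lower, against 3.78% of annotated probe sets called in either direction. Their median difference was 0.45. Uhrf1, which takes part in copying DNA methylation marks to new strands, was higher by 0.68 log2 units (limma adjusted p = 0.00361). Its highest flox/flox value of 9.55 lay under its lowest Mx1Cre value of 10.09. Pole, the leading-strand polymerase subunit, and Clspn, a replication checkpoint adaptor, were higher by 0.81 and 0.70. By array, the median deviation of the list was -0.42, -0.10 and -0.09 in the flox/flox arrays and 0.16, 0.30 and 0.22 in those labelled Mx1Cre. The array that was highest for this list, Mx1Cre replicate 2, was thus the lowest of its label for the histones. With 1 row per gene in the fit, 15 of the 37 were called, against 4.91% of all rows, and with all probe sets 2, against 0.869%. Without 1 array the count fell to between 3 and 6, at 4 or fewer except without flox/flox replicate 2.

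Mitosis genes had all 20 differences above 0, against 47.0% of annotated probe sets, with a median of 0.56. Groups did not overlap for 13 of the 20 with Mx1Cre higher, against 10.4% of annotated probe sets. Past the test 1 of the 20 was called, a share near the background of 3.78%. That was Aurkb, a kinase that phosphorylates histone H3 in mitosis, at 0.84 log2 units (limma adjusted p = 0.0432). The mitosis count was 0 without flox/flox replicate 3 or any 1 Mx1Cre array, and 2 without flox/flox replicate 2. Flox/flox replicate 1 stood apart, with a median deviation of -0.70 against 0.04 and -0.09 in flox/flox replicates 2 and 3. The same array was the lowest for the single-gene histones, the shared H4 sets and DNA replication. For the shared H3 sets flox/flox replicate 2 was the lowest, at -0.26 against -0.22 in flox/flox replicate 1. Without flox/flox replicate 1, 0 histone probe sets were called, as was also the case without flox/flox replicate 2 and without Mx1Cre replicate 3.

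**Figure D4:**
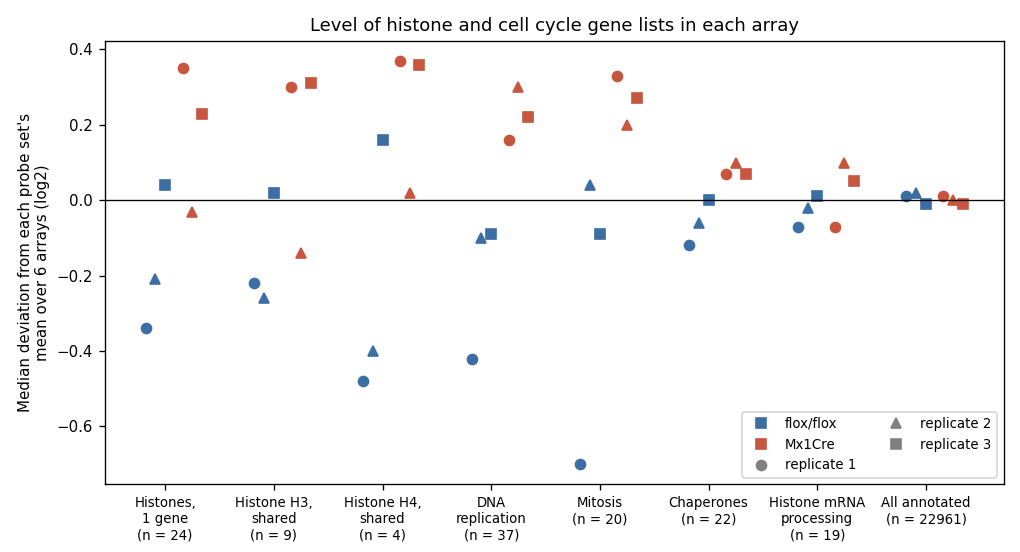
Median, over the probe sets of each list, of the deviation from the probe set's mean over 6 arrays (log2 units), 1 point per array; blue is flox/flox, red is Mx1Cre and marker shapes are replicate numbers. The histone points of the labels interleave, with flox/flox replicate 3 at 0.04 above Mx1Cre replicate 2 at -0.03, whereas the DNA replication points do not.

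Of the genes that make and process histone messages, 19 were measured and 0 passed in either direction (limma), with a median difference of 0.08. Of the 19, 13 had a difference above 0, against 47.0% of annotated probe sets. Groups did not overlap for 6 with Mx1Cre higher, against 10.4%, and for 3 with Mx1Cre lower, against 10.6%. The 3 lower ones, named after their values were seen, were Cpsf2, Mif4gd and Tut7 at -0.33, -0.30 and -0.35. An unadjusted p under 0.05 was reached by 5 of them, against 15.7% of annotated probe sets, and other limma settings called 0 to 3 of the 19. Slbp read 9.29, 9.82 and 9.79 against 9.67, 9.74 and 9.72, overlapping at 0.08. Npat, the cyclin E target that switches on histone transcription, differed by 0.01, and Casp8ap2 (FLASH), its partner at histone loci, by 0.16 with groups that did not overlap (limma adjusted p = 0.473). Hinfp, the H4 promoter factor, differed by 0.00. Lsm10 and Lsm11, proteins of the U7 particle that cuts histone messages, differed by -0.16 and 0.04, and Zfp473, which binds that particle, by 0.18. Cpsf2, of the cleavage complex, is named after its values were seen and lay just outside the threshold at -0.33 (limma adjusted p = 0.0548), from 10.84 to 10.93 against 10.54 to 10.57. Pou2f1, whose product binds the octamer, was not analysed here.

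Histone chaperones escort new histones to DNA. Of 22 measured, 17 had a difference above 0, against 47.0% of annotated probe sets, with a median of 0.16. Groups did not overlap for 10 of them with Mx1Cre higher, against 10.4%, and for 0 with Mx1Cre lower, against 10.6%. Past the test 1 was higher and 0 lower, a share near the 3.78% of annotated probe sets called in either direction. Mms22l, of the complex that reads new H4 behind the fork, was 1.36-fold higher (limma adjusted p = 0.0427), from 8.14, 8.23 and 8.39 to 8.77, 8.59 and 8.72. The groups did not overlap, but the call was lost without any 1 array and with median centring (limma adjusted p 0.0539 to 0.147). Chaf1a and Chaf1b, subunits of the assembly factor CAF-1, differed by 0.46 and 0.06, Asf1b by 0.33 and Nasp, the H3-H4 and linker histone chaperone, by 0.21, none past the test.

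Histones listed as replication-independent include variants that replace the canonical forms. Of 11 measured, Macroh2a1, a variant H2A with a large added domain, was higher and the others did not pass, against 2.06% of annotated probe sets called higher. It read 10.97, 11.36 and 11.30 against 11.89, 11.76 and 11.78, a difference of 0.60 ± 0.11 log2 units (SE, limma adjusted p = 0.0231). The groups did not overlap, but the call held without flox/flox replicate 2 and was lost without any 1 of the other arrays (limma adjusted p 0.052 to 0.0733) and with all probe sets in the fit (0.107). H2ax, the variant phosphorylated at DNA breaks, differed by 0.34, H2az1 by 0.12 and H3f3a, an H3.3 gene, by 0.09. The H3f3a probe set averaged 5.76 in the flox/flox and 5.85 in the Mx1Cre arrays, near the lower quartile of 5.58. The list includes H1f7, H1f8 and H1f10, and its median was 0.01. H3f3b and H1f0 were not analysed here.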

How the data were processed

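The deposited values are log2 expression per probe set, made by the authors with RMA and the affy software, per the submitters' processing notes. Software versions and the chip definition file were not given in the sources used here. RMA as a method gives arrays 1 common distribution, which removes a change shared by all genes, and it understates folds of dim probe sets. Of 34760 probe sets, 21640 had 1 symbol in the platform annotation, 1321 several and 11799 none here.

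Differences were tested over the 22961 annotated probe sets with limma 3.58.1 in R 4.3.3 (lmFit, eBayes) and Benjamini-Hochberg adjustment, called at 0.05. Probe sets, not genes, were fitted because members share symbols. Mean values chose which probe sets are shown and do not rank genes by abundance. For lists, a gene stands by its single-symbol set of highest mean. The number of arrays limits the precision. Members and lists were chosen with earlier results of these data known. Named are all members, a set of regulators and up to 3 called genes each way per list; members shown by array beyond those called, of several symbols or of highest mean per class (H1f1, H2bc14, H2bc4, H4c3) were chosen after their values were seen. Alternatives were other sets of rows, centring, cyclic loess, dimness filters, trend, weights, a Welch test, thresholds, the replicate number as a block and leaving out each array. The replicate numbers are shared across labels, with correlations of deviations of 0.171, 0.0666 and 0.157.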

Additional observations from a re-analysis of the deposited data

How the results depend on the processing

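The 3 calls among the histones moved with single arrays and with the rows fitted; the cause of each change was not tested. With all 34760 probe sets in the fit, 302 were called in place of 867, with 0 single-gene and 0 shared histone sets, 0 chaperones, 0 replication-independent histones, 2 DNA replication genes and 0 mitosis genes. A Welch test, with no shared spread, called 3 probe sets and 0 in every list and among the members. At an adjusted p under 0.01, 331 probe sets, 0 members, 3 DNA replication genes and 0 genes of the chaperone, replication-independent histone and mitosis lists were called. At 0.10 the counts were 1447 probe sets, 16 DNA replication, 4 mitosis, 3 processing and 2 chaperone genes. Median centring left 0 shared sets, 0 chaperones, 0 mitosis genes and 3 DNA replication genes, and cyclic loess 0 shared sets, 2 processing genes and 12 DNA replication genes. DNA replication counts were 15 with 1 row per gene, above the lower quartile, above the median and with trend and robust prior, and 14 with array weights. In the same settings processing genes numbered 1, 2, 2, 2 and 2, and mitosis genes 2, 2, 2, 2 and 3. The trend setting also called 2 chaperones. No alternative turned the median difference of the single-gene members, or a called member, to the other side of 0.

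Leaving out 1 array gave 449 to 649 called probe sets, 0 to 3 single-gene members higher and 0 lower, and 0 to 2 shared sets. The median difference of the 30 single-gene members was then 0.11 to 0.23, against 0.18 over all arrays. Such fits gave 0 to 0 processing genes, 0 to 0 chaperones, 0 to 1 replication-independent histones, 3 to 6 DNA replication genes and 0 to 2 mitosis genes. Whether same-numbered arrays of the labels belong together was not settled here. Correlations of deviations were 0.0666 to 0.171 for same-numbered arrays and -0.202 to 0.0858 for the other pairs. With the replicate block, 2 shared sets, 0 chaperones and 11 DNA replication genes were called, and H1f5 and H2ac15 lay at limma adjusted p 0.0681 and 0.0543, while H4c3 and H4c4 passed at 0.0163 and 0.0221. Dim members such as H3c7 and H2ac8 lie under the lower quartile of level, where signal over background limits what a difference shows.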

Other observations

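A further 7 probe sets carried mostly histone symbols but failed the naming rule because at least 1 symbol did not match it. The 6 of H2B, each annotated to 14 or 15 symbols, had differences between 0.45 and 0.93 log2 units and none passed (smallest limma adjusted p 0.0673). H2bc4, at -0.53 in its own probe set, is among the symbols of all 6, whose values cannot be given to 1 gene. Among them, left-out set 4 read 10.08, 10.42 and 9.90 in the flox/flox arrays and 11.01, 10.49 and 10.84 in the Mx1Cre arrays, the only 1 of the 6 with no overlap. The set of mostly H2A symbols carried 19, among them H2ac15, H2ax and H3c4. It differed by 0.49 (limma adjusted p = 0.437), with Mx1Cre replicate 2 at 6.38, below 2 of the 3 flox/flox arrays.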
